A study of Mus musculus with 30 samples.

Results

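The insulin-like growth factor family was followed in mouse tendon fibroblasts treated with blebbistatin or Y27632. The 10 genes described, of 35973 in the RNA table, were chosen by name with the RNA values of these libraries already known. They were the ligands Igf1 and Igf2, the receptor Igf1r, the binding proteins Igfbp2, Igfbp3, Igfbp4, Igfbp5, Igfbp6 and Igfbp7, and the protease Pappa. All 10 had reads in every RNA library and all 10 passed the filter on low values. Because of that choice, their changes against DMSO and the calls made on them are given as a description.

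The cells were primary fibroblasts from mouse tail tendon, labelled wildtype in all 30 libraries, and treated in DMEM with 0.1% FBS. RNA was measured in 3 libraries each of cells given the solvent DMSO, blebbistatin at 10 µM or Y27632 at 30 µM. Blebbistatin inhibits non-muscle myosin II, the motor that pulls on actin filaments, and Y27632 is a small-molecule kinase inhibitor. Accessible chromatin (ATAC) was measured under the same 3 treatments, with 3 libraries each, and 12 further genomic DNA libraries, 3 per group, had neither drug, blebbistatin alone, doxycycline at 10 ng/mL alone, or both. What doxycycline induces in these wildtype-labelled cells is not given in the sources used here, and neither are the duration of treatment, the age of the mice, or whether the 3 libraries of a group came from separate cultures or animals. The p-values below therefore measure the spread between these libraries, which may be technical.

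Insulin-like growth factors 1 and 2 are secreted peptides that act through the type 1 receptor, a tyrosine kinase that signals to growth and survival through insulin receptor substrates, phosphatidylinositol 3-kinase and Akt. Outside the cell most of the ligand is held by binding proteins, which prolong its life and limit its access to the receptor. Pappalysin, the product of Pappa, cuts binding proteins, IGFBP4 above all, and so frees the ligand. Stanniocalcins inhibit pappalysin. In connective tissue the ligands are known as stimulators of matrix synthesis by fibroblasts.

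Library depth ran from 23375386 to 37061737 reads in genes. All 10 tendon fibroblast markers had reads, and their summed level was 22150 to 23540 CPM (reads scaled to a common library total) in DMSO, 21690 to 23570 in blebbistatin and 22950 to 23960 in Y27632 libraries. Most of these are collagen and matrix genes, and the tendon regulator Scx had reads at 2.10 to 3.26 CPM. Col1a1 and Col1a2 made up most of the summed level, at 10827 and 8921 CPM in DMSO replicate 1. Single markers did change: 5 of the 10 were called higher and 3 lower with blebbistatin, and 6 higher and 0 lower with Y27632. Over all genes tested, 26.1% were called higher and 26.9% lower with blebbistatin, and 18.1% and 17.8% with Y27632. The 5 immune markers (Ptprc, Cd68, Csf1r, Adgre1 and Lyz2) summed to 205.2 to 227.5 CPM in DMSO, 313.8 to 349.8 in blebbistatin and 303.3 to 344.6 in Y27632 libraries, and all 5 were called higher with both inhibitors. Of the 5 skeletal muscle markers, Myod1 and Ckm were at 0 in every library. The other 3, Myog, Des and Acta1, had reads, and the list summed to at most 1.54 CPM.

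Some sequences are shown first because the results return to them. The promoter of Igfbp5 belongs to the member with the largest change, and the promoter of Igf1r to the only member with a listed chromatin site at its start. Both show the 250 bases before the RefSeq gene start, on the gene's own strand, in build GRCm38 (mm10). For Igfbp5 (chr1:72874866-72875115, minus strand) the capitals mark CATTCC, the reverse complement of GGAATG, the core letters bound by TEAD factors, the DNA-binding partners of Yap and Taz. For Igf1r (chr7:67952007-67952256, plus strand) they mark the 137 bases that lie inside the site at which the signal was higher with doxycycline.
Igfbp5: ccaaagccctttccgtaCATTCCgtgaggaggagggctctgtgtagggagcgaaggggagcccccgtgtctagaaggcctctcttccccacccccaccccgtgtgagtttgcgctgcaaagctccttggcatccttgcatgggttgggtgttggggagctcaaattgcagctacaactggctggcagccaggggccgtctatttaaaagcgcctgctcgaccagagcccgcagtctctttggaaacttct
Igf1r: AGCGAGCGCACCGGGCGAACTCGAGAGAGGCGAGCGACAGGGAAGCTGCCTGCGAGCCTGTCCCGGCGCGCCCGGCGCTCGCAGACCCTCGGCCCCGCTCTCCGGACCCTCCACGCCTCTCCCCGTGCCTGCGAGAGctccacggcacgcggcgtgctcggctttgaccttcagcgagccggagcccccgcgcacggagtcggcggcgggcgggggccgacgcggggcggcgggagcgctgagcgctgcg
GGAATG was searched on both strands and stood at position -233 from the Igfbp5 start. Of 32851 RefSeq windows of this length, 12.6% hold it, so a match is common. It also stands in 3 of the 4 windows of Igf2, which was not called against DMSO. The Igf1r window held neither GGAATG nor the letters TGANTCA (AP-1) or GTAAACA (FoxO), which stand in 6.75% and 3.17% of windows. TGANTCA was found in a window of Igfbp2 and in that of Igf1, and GTAAACA in none of the 13 windows found for 9 of the 10 genes.

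In an intron of Pappa lies the site of lower signal with blebbistatin that 2 separate experiments list (chr4:65289288-65289579). The authors' ATAC list for blebbistatin gives 2 matches of the TEAD motif in it, shown here with GAATG or its reverse complement in capitals. They are the only matches that list gives at its 2 sites of the 10 genes. The authors' motif is not the same rule as the GGAATG search made in the promoters. The minus match holds CATTCC, the reverse complement of GGAATG, and the plus match holds neither. Sites of the other lists were not looked up for motif matches.
Pappa, match marked plus: aaGAATGcaa
Pappa, match marked minus: gtgCATTCca
In that list 603 of 970 sites (62.2%) had such a match.

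RNA values are normalised counts, the reads of a gene divided by a size factor for each library. The blebbistatin and Y27632 tables were scaled separately, and the same DMSO libraries have values 3.81% to 3.96% higher in the second. To be called, a gene needed an adjusted p below 0.05 in the fit over all genes (limma for each inhibitor against DMSO, edgeR for the inhibitors against each other). Means of RNA values are given with the SD over the 3 libraries of a group. Log2 changes against DMSO are on the scale log2(normalised count + 1). Log2 differences between the inhibitors are edgeR estimates from whole reads and are not on that scale. Both comparisons with DMSO use the same 3 DMSO libraries.

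With blebbistatin, 6 of the 10 genes were called, Igfbp4 and Igfbp5 higher and Igf1, Igf1r, Igfbp3 and Pappa lower. Over all 14882 genes tested, 53.0% were called, 26.1% higher and 26.9% lower, so the share among the 10 is near the background. With Y27632, 5 of the 10 were called, Igfbp4, Igfbp5, Igfbp7 and Pappa higher and Igf1r lower, against 35.9% of 14833 genes, 18.1% higher and 17.8% lower. Between the inhibitors, 5 of the 10 were called, Igf1, Igf2, Igf1r, Igfbp3 and Pappa, each lower with blebbistatin than with Y27632, against 52.4% of 15262 genes, 26.5% higher and 25.8% lower. The median log2 change of the 10 was -0.17 with blebbistatin, 0.11 with Y27632 and -0.24 between the inhibitors, where the medians over all genes were 0.00, 0.00 and 0.01. The authors' deposited tables have 6 of the 10 with an adjusted p under 0.05 for blebbistatin and 5 for Y27632, where Igfbp2 has none given.

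**Figure D1:**
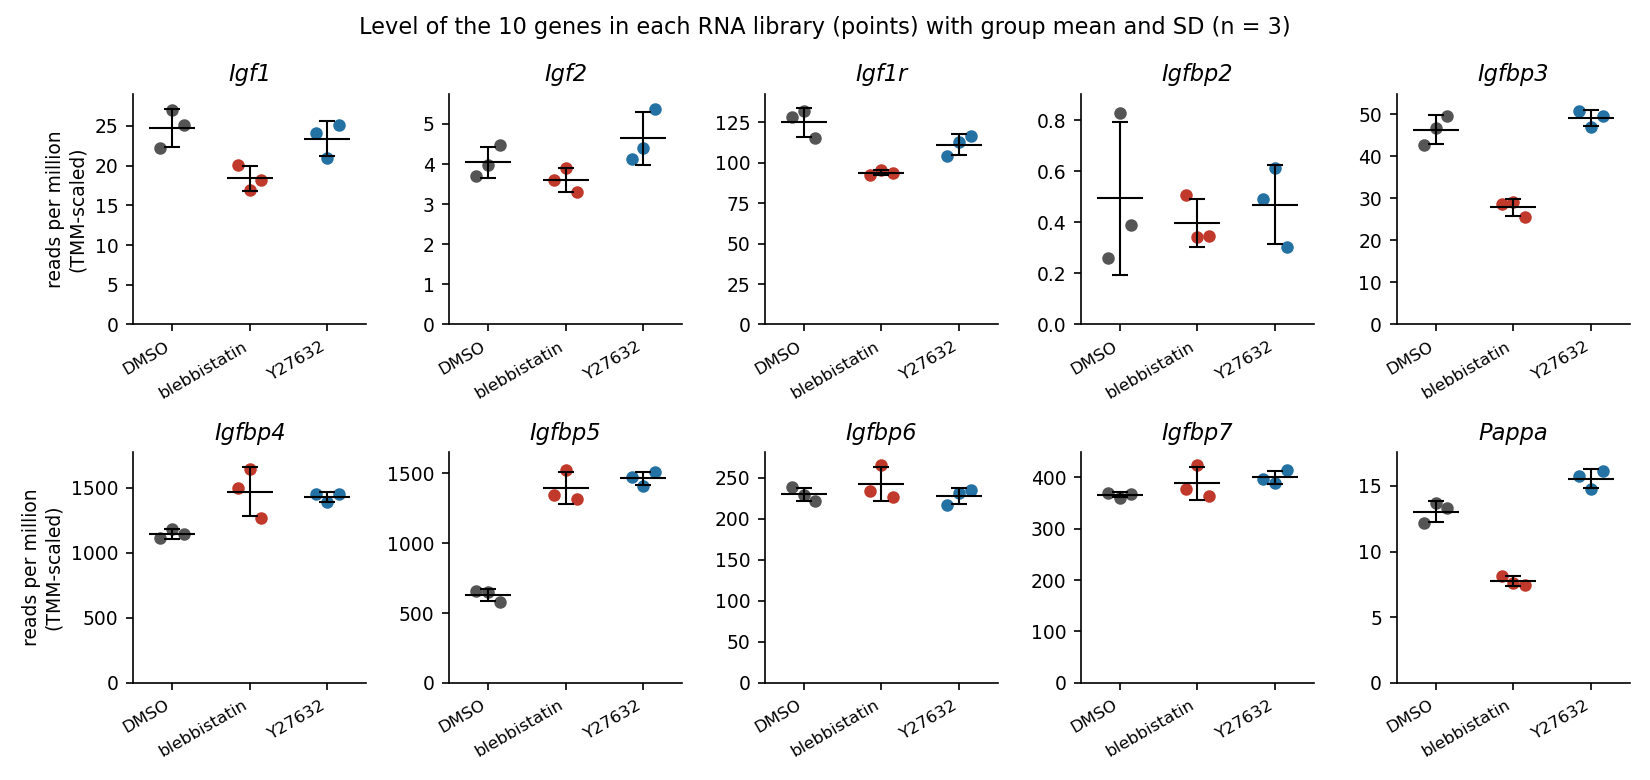
Level of each gene in the 9 RNA libraries, in CPM scaled by TMM (linear axes from 0, a separate scale per gene). Points are libraries, long bars are group means and whiskers are the SD (n = 3). Igfbp5 is higher in all 6 treated libraries than in any DMSO library, Igfbp3 is lower than DMSO in the 3 blebbistatin libraries, and Pappa lies below DMSO with blebbistatin and above it with Y27632.

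Of the ligands, Igf1 fell with blebbistatin. In the DMSO libraries it had 589.8, 717.0 and 666.3 normalised counts, and in the blebbistatin libraries 534.9, 446.4 and 483.3. Each blebbistatin library lay below each DMSO library. The mean went from 657.7 ± 64.1 to 488.2 ± 44.5, with a log2 change of -0.43 (SE 0.0829, limma adjusted p = 0.000872). With Y27632 the values were 661.5, 576.5 and 696.0, against 613.1, 744.4 and 692.4 in DMSO, and the groups overlapped. That log2 change was -0.08 (95% interval -0.26 to 0.09, limma adjusted p = 0.449). Set against each other, the inhibitors differed by -0.34 on the log2 scale, lower with blebbistatin (SE 0.0857, edgeR adjusted p = 0.00434). Igf1 (chr10:87858265-87937047) overlaps the long non-coding RNA gene Igf1os in RefSeq, and whether reads were counted by strand is not given in the sources used here, so reads of overlapping genes may not be told apart. These are bulk libraries, in which fewer cells of a type and less RNA per cell cannot be told apart.

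Igf2, the ligand best known from fetal growth, was read at a lower depth, with 92 to 151 reads per library. The 3 DMSO libraries had 98.3, 105.9 and 118.3 normalised counts and the 3 blebbistatin libraries 95.56, 102.8 and 88.2. On the scale of the Y27632 table, DMSO had 102.2, 109.9 and 123.0 and Y27632 had 113.5, 121.3 and 148.8. Both treated groups overlapped DMSO, with log2 changes of -0.17 (95% interval -0.44 to 0.11) and 0.19 (-0.09 to 0.47), neither called. Igf2 was called between the inhibitors, lower with blebbistatin by a log2 difference of -0.34 (SE 0.129, edgeR adjusted p = 0.0381). The call was lost without blebbistatin replicate 1 (-0.35, edgeR adjusted p = 0.069), without blebbistatin replicate 3 (-0.29, 0.109), without Y27632 replicate 3 (-0.23, 0.164) and with DESeq2 (-0.35, 0.0979). Igf2 (chr7:142650768-142666816) overlaps Igf2os and the microRNA gene Mir483, whose reads may not be told apart from its own.

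H19, the imprinted non-coding RNA gene 72.6 kb from Igf2, was called in both comparisons and in opposite directions. It fell with blebbistatin from 1713 ± 179 to 1224 ± 231 normalised counts, with a log2 change of -0.50 (limma adjusted p = 0.00279). With Y27632 it rose from 1780 ± 185 to 2580 ± 106, a log2 change of 0.54 (limma adjusted p = 1.87e-05). The groups did not overlap in either comparison. Of the RNA-binding proteins named for binding Igf2 RNA, Igf2bp1 fell with both inhibitors (log2 changes -1.36 and -0.91), Igf2bp2 rose with both (0.24 and 0.23) and Igf2bp3 rose with blebbistatin (0.39) but was not called with Y27632 (-0.01). Of the 6 genes listed as regulators of Igf2 RNA with H19, 4 could be tested, and 2 were called higher and 2 lower with blebbistatin, 2 higher and 1 lower with Y27632.

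The receptor Igf1r was lower with blebbistatin. DMSO libraries had 3411, 3508 and 3050 normalised counts, and blebbistatin libraries 2465, 2512 and 2493. The blebbistatin libraries lay close together and all below DMSO, at 2490 ± 23.6 against 3323 ± 241. The log2 change was -0.41 (SE 0.0478, limma adjusted p = 1.29e-05). With Y27632, values of 2859, 3113 and 3233 overlapped the DMSO values of 3546, 3642 and 3170 on that table's scale. The log2 change was -0.17 (SE 0.0543, limma adjusted p = 0.027). This call rested on few libraries: leaving out DMSO replicate 1 ended it (-0.15, limma adjusted p = 0.0928), as did fits without DMSO replicate 2 (-0.13, 0.124), without Y27632 replicate 1 (-0.12, 0.11) and without Y27632 replicate 2 (-0.18, 0.0502). Against Y27632, blebbistatin was lower by -0.23 on the log2 scale (SE 0.051, edgeR adjusted p = 0.00151). Igf1r (chr7:67952257-68233668) overlaps the non-coding genes Gm51487 and Gm51488.

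Among the other receptors of the system, Igf2r, which clears IGF2 by taking it into lysosomes, rose with both inhibitors. It went from 6108 ± 543 to 9693 ± 109 normalised counts with blebbistatin, with a log2 change of 0.67 (limma adjusted p = 3.8e-07). With Y27632 its change was 0.21 (limma adjusted p = 0.0107). The inhibitors differed by 0.48 (edgeR adjusted p = 2.34e-06). Insr, the insulin receptor, fell with both, by log2 changes of -0.23 and -0.13, and the inhibitors did not differ detectably (-0.09, 95% interval -0.18 to 0.01). Igfbp1 had 0 reads in every library, and Igfbpl1 at most 1. Of 8 such ligand, receptor and binding protein genes outside the 10, 3 could be tested, among them Igfals, the acid-labile subunit that joins circulating complexes of ligand and binding protein. Its level was low, at 8 to 49 reads per library. It was called higher with blebbistatin (log2 change 1.49, limma adjusted p = 0.000593) and not called with Y27632 (0.49, 0.241), and it was named after its values were seen.

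Igfbp5 had the largest change of the 10, and nearly the same one under both inhibitors. It encodes a secreted binding protein that also attaches to extracellular matrix. DMSO libraries had 17527, 17228 and 15405 normalised counts and blebbistatin libraries 35667, 40216 and 35132. The mean rose from 16720 ± 1150 to 37005 ± 2790, 2.21-fold, a log2 change of 1.15 (SE 0.0561, limma adjusted p = 5.27e-09). With Y27632 the libraries had 40519, 38870 and 41689, against 18221, 17885 and 16009 in DMSO on that scale. Here the mean rose 2.32-fold, a log2 change of 1.22 (SE 0.0453, limma adjusted p = 1.76e-09). No treated library overlapped a DMSO library in either comparison. Between the inhibitors the log2 difference was -0.06 (95% interval -0.17 to 0.06, edgeR adjusted p = 0.376). Without blebbistatin replicate 2, the highest of its group, the difference was called at -0.13 (edgeR adjusted p = 0.0257). The immune marker sum given above also moved with both treatments, and its part in the binding protein results was not tested.

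Genes with the pattern most like Igfbp5 were looked up over the 9 libraries among 11464 genes with a mean of at least 100 reads. The likeness was the root mean square difference of log2 CPM centred on the DMSO mean. Arrdc3 was nearest, at 0.132, with log2 changes of 1.03 with blebbistatin and 1.28 with Y27632. Ttyh2 followed at 0.148 (1.01 and 1.14) and Abcg1, a cholesterol exporter, at 0.153 (1.21 and 1.36). Igfbp5 was the only one of the 10 with an absolute log2 change of at least 1, the size at which such a search was made.

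Igfbp4, the binding protein that pappalysin is best known to cut, rose with both inhibitors too, by less than Igfbp5. Its DMSO values were 29545, 31472 and 30259 normalised counts, and its blebbistatin values 39902, 43331 and 33704. All blebbistatin libraries were above all DMSO libraries, although replicate 3 was closer to DMSO than to replicate 2. The log2 change was 0.35 (SE 0.0693, limma adjusted p = 0.00103), or 1.28-fold. Y27632 libraries had 39949, 38236 and 40173 against 30716, 32673 and 31445 in DMSO, without overlap, a log2 change of 0.32 (SE 0.0334, limma adjusted p = 1.03e-05). The inhibitors differed by 0.05 (95% interval -0.09 to 0.19, edgeR adjusted p = 0.542). That difference was -0.04 without blebbistatin replicate 2, and was called at 0.14 without blebbistatin replicate 3 (edgeR adjusted p = 0.012).

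Igfbp3, which carries most of the ligand in blood and is secreted by many fibroblasts, set the inhibitors apart. DMSO libraries had 1133, 1241 and 1315 normalised counts and blebbistatin libraries 761.4, 769.6 and 679.9. Every blebbistatin value was below every DMSO value. The mean fell from 1230 ± 91.7 to 736.9 ± 49.6, with a log2 change of -0.74 (SE 0.0649, limma adjusted p = 1.15e-06). Y27632 libraries had 1394, 1295 and 1371 against 1178, 1288 and 1367 in DMSO, overlapping. The log2 change there was 0.08 (95% interval -0.03 to 0.20, limma adjusted p = 0.25). The direct difference was -0.81, lower with blebbistatin (SE 0.0609, edgeR adjusted p = 6.54e-08). Its neighbour Igfbp1 lies 3.5 kb away on chromosome 11 and, as given above, had no read.

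Of the remaining binding proteins, only Igfbp7 was called against DMSO, and only with Y27632. Igfbp7, which binds insulin-like growth factors weakly, had 10179, 9945 and 10135 normalised counts in DMSO and 10889, 10718 and 11449 with Y27632. These groups did not overlap, and the small rise was called (log2 change 0.13, SE 0.0317, limma adjusted p = 0.00716). With blebbistatin, values of 10026, 11169 and 9675 overlapped those of DMSO at 9791, 9580 and 9753. That change was 0.08 (limma adjusted p = 0.154), called at 0.12 without blebbistatin replicate 3 (0.0358). The inhibitors differed by -0.03 (95% interval -0.13 to 0.06), a difference called at -0.10 without blebbistatin replicate 2 (edgeR adjusted p = 0.0213). In RefSeq, Igfbp7 (chr5:77349240-77408045) overlaps Polr2b and Gm34648.

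Igfbp6, which prefers IGF2 as its ligand, was not called against DMSO with either inhibitor. Its values were 6334, 6080 and 5889 normalised counts in DMSO against 6220, 6998 and 6040 with blebbistatin, and 6584, 6312 and 6119 against 5953, 6378 and 6490 with Y27632. The groups overlapped both times, with log2 changes of 0.07 (95% interval -0.04 to 0.18) and -0.02 (-0.10 to 0.07). The difference between the inhibitors was 0.10 (edgeR adjusted p = 0.105), called without blebbistatin replicate 3 (0.13, 0.0428) and with no filter on low counts (0.09, 0.0373). Igfbp2 was near the floor of detection, with 7 to 20 reads per library. Its DMSO values of 6.95, 22.06 and 10.34 spanned those of blebbistatin at 13.5, 9.044 and 9.188. On the scale of the other table, DMSO values of 7.226, 22.9 and 10.74 likewise spanned the Y27632 values of 13.53, 16.82 and 8.386. The log2 changes were -0.16 (95% interval -1.05 to 0.73) with blebbistatin and 0.02 (-0.87 to 0.92) with Y27632. Neither was called, and at this depth changes anywhere within these intervals remain possible. With blebbistatin, the edgeR and DESeq2 fits on whole reads gave -0.31. Igfbp2 and Igfbp5 lie side by side on chromosome 1, 5.6 kb apart.

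The protease gene Pappa was called in opposite directions under the inhibitors. DMSO libraries had 323.7, 364.0 and 352.7 normalised counts and blebbistatin libraries 217.1, 201.4 and 199.4. The mean fell from 346.8 ± 20.8 to 206.0 ± 9.69, with a log2 change of -0.75 (SE 0.0812, limma adjusted p = 7.35e-06). Y27632 libraries had 433.7, 406.4 and 447.6 against 336.5, 377.9 and 366.5 in DMSO. Here the mean rose from 360.3 ± 21.4 to 429.3 ± 20.9, a log2 change of 0.25 (SE 0.0703, limma adjusted p = 0.0133). Neither comparison had overlapping libraries, but the rise with Y27632 was not called without DMSO replicate 1 (0.20, limma adjusted p = 0.054) or without Y27632 replicate 3 (0.22, 0.0578). Between the inhibitors the log2 difference was -0.99 (SE 0.0727, edgeR adjusted p = 4.87e-08).

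**Figure D2:**
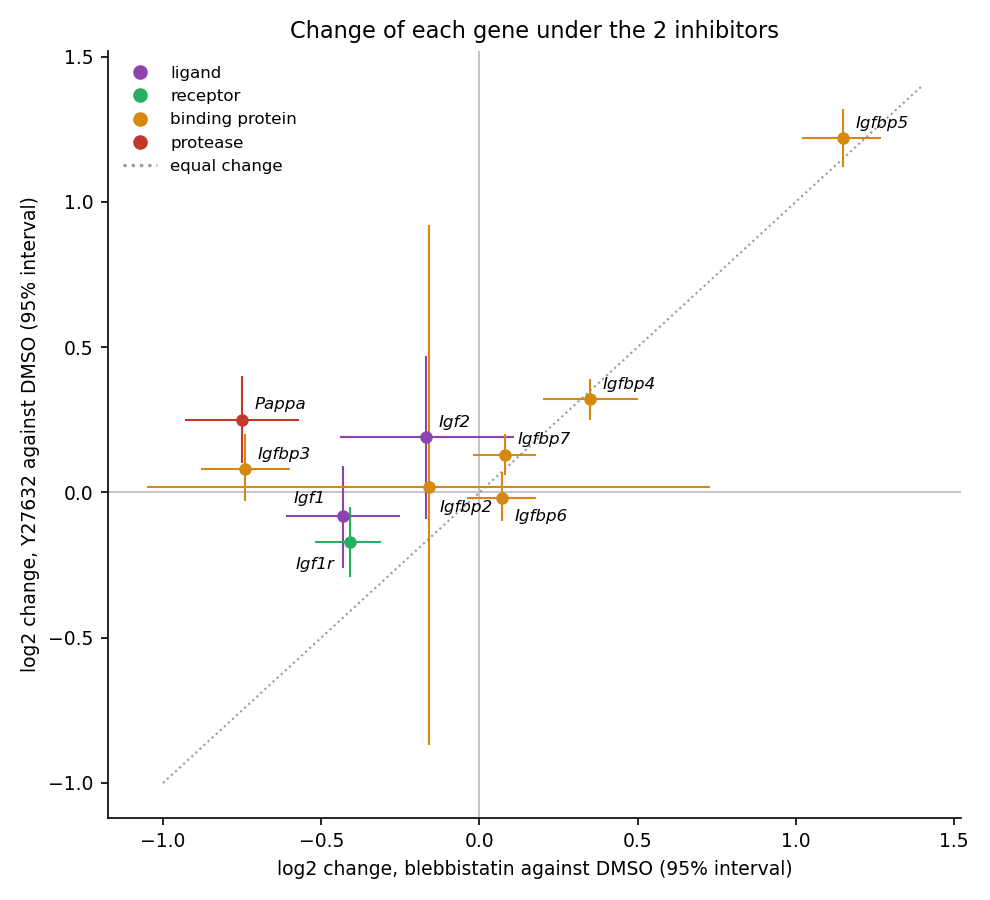
Log2 change of each of the 10 genes against DMSO with blebbistatin (horizontal) and Y27632 (vertical), with 95% intervals. The dotted line marks equal change, and both axes share the 3 DMSO libraries. Igfbp5 and Igfbp4 lie on the line within their intervals, while Pappa and Igfbp3 lie far to its left, at -0.75 and -0.74 with blebbistatin and 0.25 and 0.08 with Y27632.

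The inhibitors of pappalysin also had lower RNA levels with blebbistatin. Stc1 fell from 347.7 ± 31.2 to 128.0 ± 11.4 normalised counts, with a log2 change of -1.43 (limma adjusted p = 1.51e-07), and was not called with Y27632 (0.21, 0.137). Stc2 fell with both, by log2 changes of -1.44 and -0.48, and was lower with blebbistatin than with Y27632 by -0.94 (edgeR adjusted p = 7.11e-07). Pappa2, the related protease, was not called in any comparison (0.28 with blebbistatin and 0.10 with Y27632). Among other proteases that cut binding proteins, Adam12 and Htra1 were called higher with both inhibitors, and Htra3 with blebbistatin (0.50) but not with Y27632 (limma adjusted p = 0.951), and Htra3 was named after its values were seen. Adam12 went from 1307 ± 25.5 to 4741 ± 154 normalised counts with blebbistatin, with a log2 change of 1.86, and its change with Y27632 was 1.20. Htra1 rose by 0.11 and 0.13. Of the 6 genes listed as binding protein proteases and their inhibitors, 3 were called higher and 2 lower with blebbistatin, and 2 higher and 1 lower with Y27632.

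Outside the 10, 69 further genes of the pathway had been listed, of which 61 could be tested. With blebbistatin 30 were called higher and 20 lower, with Y27632 13 and 16, and between the inhibitors 27 and 16. That is 50, 29 and 43 of 61 called in either direction, where 53.0%, 35.9% and 52.4% of all genes were. The shares over all genes apply as well to each list counted above and below. Their median log2 changes were 0.10, -0.01 and 0.09. Among 28 tested adaptors and signalling genes, 11 were called higher and 12 lower with blebbistatin, and 4 higher and 6 lower with Y27632. Irs1, the docking protein next to the receptor, fell with blebbistatin (log2 change -0.43, limma adjusted p = 1.43e-05). With Y27632 it was called slightly higher (0.16, limma adjusted p = 0.0299), although its Y27632 libraries overlapped those of DMSO. Irs2 rose with blebbistatin (0.29) and was not called with Y27632 (0.18, 0.113). Pik3cb, a catalytic subunit of phosphatidylinositol 3-kinase, fell with both (-1.04 and -0.61). Its regulatory partner Pik3r1 rose with both (0.13 and 0.63), and another, Pik3r3, fell with Y27632 (-0.63) and was not called with blebbistatin (0.05).

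FoxO factors are transcription factors that Akt keeps out of the nucleus, and the list of these factors and their known targets had different counts under the inhibitors. With blebbistatin 11 of 14 were called higher and 0 lower, with a median log2 change of 0.28, where 26.1% of all genes were called higher and 26.9% lower. With Y27632 3 were called higher and 5 lower, with a median of -0.12, against 18.1% and 17.8% of all genes. Between the inhibitors 13 of 14 were called higher with blebbistatin and 0 lower, with a median of 0.54, against 26.5% and 25.8%. No test of the list was made, and it was chosen with earlier results of these data known. The largest log2 change with blebbistatin in this list was that of Trim63, a muscle ubiquitin ligase, at 2.81 (limma adjusted p = 3.27e-10). Trim63 rose from 113.1 ± 15.9 to 795.8 ± 44.6 normalised counts with blebbistatin, and its log2 change with Y27632 was 0.55. The skeletal muscle markers summed to at most 1.54 CPM in any library. Klf15 fell with Y27632 (-0.69, limma adjusted p = 0.00018) and was not called with blebbistatin (0.12, 0.337). Foxo4 had the smallest called change with blebbistatin under the naming rule, at 0.10. Calls among the growth hormone axis, which controls Igf1 in liver, were 1 higher and 3 lower of 6 with blebbistatin and 1 higher and 2 lower with Y27632. Its feedback inhibitor Socs2 fell with blebbistatin (-0.82) and rose with Y27632 (0.43), its kinase Jak2 fell by -0.12 and -0.10, and the receptor Ghr fell with both (-0.24 and -0.17).

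**Figure D3:**
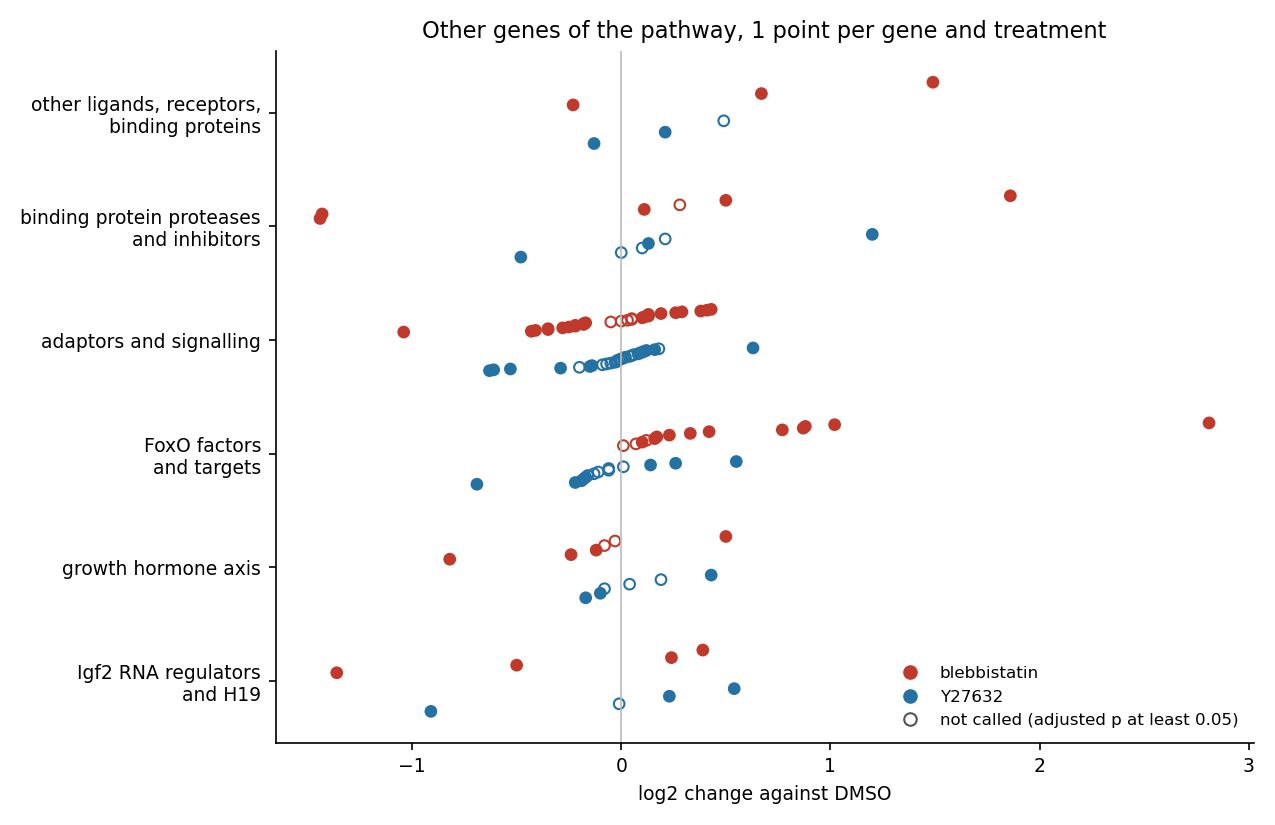
Log2 change against DMSO of the 61 tested genes of the other pathway lists, 1 point per gene, with blebbistatin in red and Y27632 in blue. Filled points were called (limma adjusted p under 0.05) and open points were not; vertical spread within a row only separates points. The FoxO row shows 11 filled red points to the right of 0 and none to the left, with Trim63 farthest at 2.81.

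Chromatin sites were taken from the authors' 5 lists of changed sites, with the authors' annotation, log2 fold and false discovery rate (FDR). The lists hold group means and no value per library, so no SD or test could be added, and the depth behind each value is unknown. Over all lists 23 sites were annotated to the 10 genes, at 18 distinct positions, and they belonged to Igf1, Igf1r, Igfbp2, Igfbp3, Igfbp7 and Pappa. None was annotated to Igf2, Igfbp4, Igfbp5 or Igfbp6, so the 2 binding proteins with higher RNA under both inhibitors had no listed site assigned to them. In the ATAC comparison of blebbistatin with DMSO, 2 of the 10 had a site, where 3.49% of 14882 RNA-tested genes had one, and in that of Y27632, where 0.833% did, the 10 had 0. Without doxycycline, blebbistatin gave 2 of the 10 a site (4.30% of genes). Doxycycline gave 6 (24.3%), and blebbistatin added to doxycycline 4 (17.5%). No test of these shares was made, and they were not adjusted for gene length or the space between genes.

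All sites of the 10 genes went the way of their lists. Both ATAC sites were lower with blebbistatin, as were 98.2% of the 970 sites of that list. Both sites of blebbistatin without doxycycline were lower, as were 99.0% of 1231. All 9 doxycycline sites were higher, as were 95.8% of 7613, and all 10 sites of blebbistatin with doxycycline were lower, as were 99.8% of 6346. The doxycycline list heads its reference column as the group with blebbistatin alone. At 13 sites shared with another list its values differed on average by -0.13 from cells given neither drug and by 1.12 from those named in the header, and it was read as neither drug. This list and that of blebbistatin with doxycycline share the libraries given doxycycline alone.

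Pappa had the most sites. The next RefSeq gene before it lies 266.1 kb away, and the count was not adjusted for gene length or spacing. Intron 10 of the 21 introns of Pappa held the site listed in 2 experiments with no library in common. In ATAC libraries (chr4:65289288-65289579, 165.3 kb from the start) the authors' log2 mean went from 6.42 in DMSO to 4.88 with blebbistatin, a log2 fold of -1.54 (FDR 0.0119). In the doxycycline experiment without doxycycline (chr4:65289276-65289533) it went from 6.53 to 5.41, a log2 fold of -1.12 (FDR 0.00359). This is the site with the motif letters shown above. With doxycycline, 2 other intronic sites of Pappa were lower when blebbistatin was added, in intron 6 (chr4:65203988-65204154, log2 fold -1.45) and intron 10 (chr4:65273195-65273455, -1.70), as were 2 intergenic ones 171.4 and 226.0 kb before the start (-1.28 and -1.18). The largest doxycycline fold of the 10 genes was at intron 4 of Pappa (chr4:65184448-65184626), where the log2 mean rose from 2.38 to 5.62, a log2 fold of 3.24 (FDR 1.13e-11). The starting value of 2.38 was the lowest log2 mean at any listed site of the 10 genes, so this fold starts from a low signal. The other Pappa site of the doxycycline list, 330.6 kb before the start, had a log2 fold of 1.80.

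Igf1 had an intergenic ATAC site 39.4 kb before its start (chr10:87818709-87818979), where the log2 mean went from 5.85 to 4.30 with blebbistatin, a log2 fold of -1.55 (FDR 0.0198). No TEAD motif match was listed there. A second Igf1 site, 88.7 kb before the start (chr10:87769404-87769807), was higher with doxycycline (1.33) and lower when blebbistatin was added (-1.05), and another at 73.7 kb was lower when blebbistatin was added (-1.02). The Igf1r start lay beside a doxycycline site (chr7:67951395-67952143, annotated promoter-TSS), the one that covers the capitals of the promoter shown above. Its log2 mean went from 8.17 to 9.30, a log2 fold of 1.13 (FDR 2.6e-07), and an intergenic site 73.8 kb before that start had a log2 fold of 1.28.

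Among binding proteins, Igfbp2 had 1 intergenic position 43.6 kb before its start that stood in 3 lists. At chr1:72780699-72781142 the log2 fold was 1.69 with doxycycline (FDR 4.3e-14) and -1.14 when blebbistatin was added (FDR 5.91e-09), and at the overlapping chr1:72780768-72781017 it was -1.02 with blebbistatin alone (FDR 0.0134). That position is also within 100 kb of the Igfbp5 gene, although the authors' annotation assigns it to Igfbp2. Igfbp3 had 3 sites that were lower when blebbistatin was added to doxycycline, 24.0, 289.0 and 686.6 kb before its start (log2 folds -1.20, -1.19 and -1.1). The middle one was higher with doxycycline (1.57). Igfbp7 had 2 sites in intron 1 of 4, both higher with doxycycline (log2 folds 1.87 and 1.46), and none in a blebbistatin list.

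**Figure D4:**
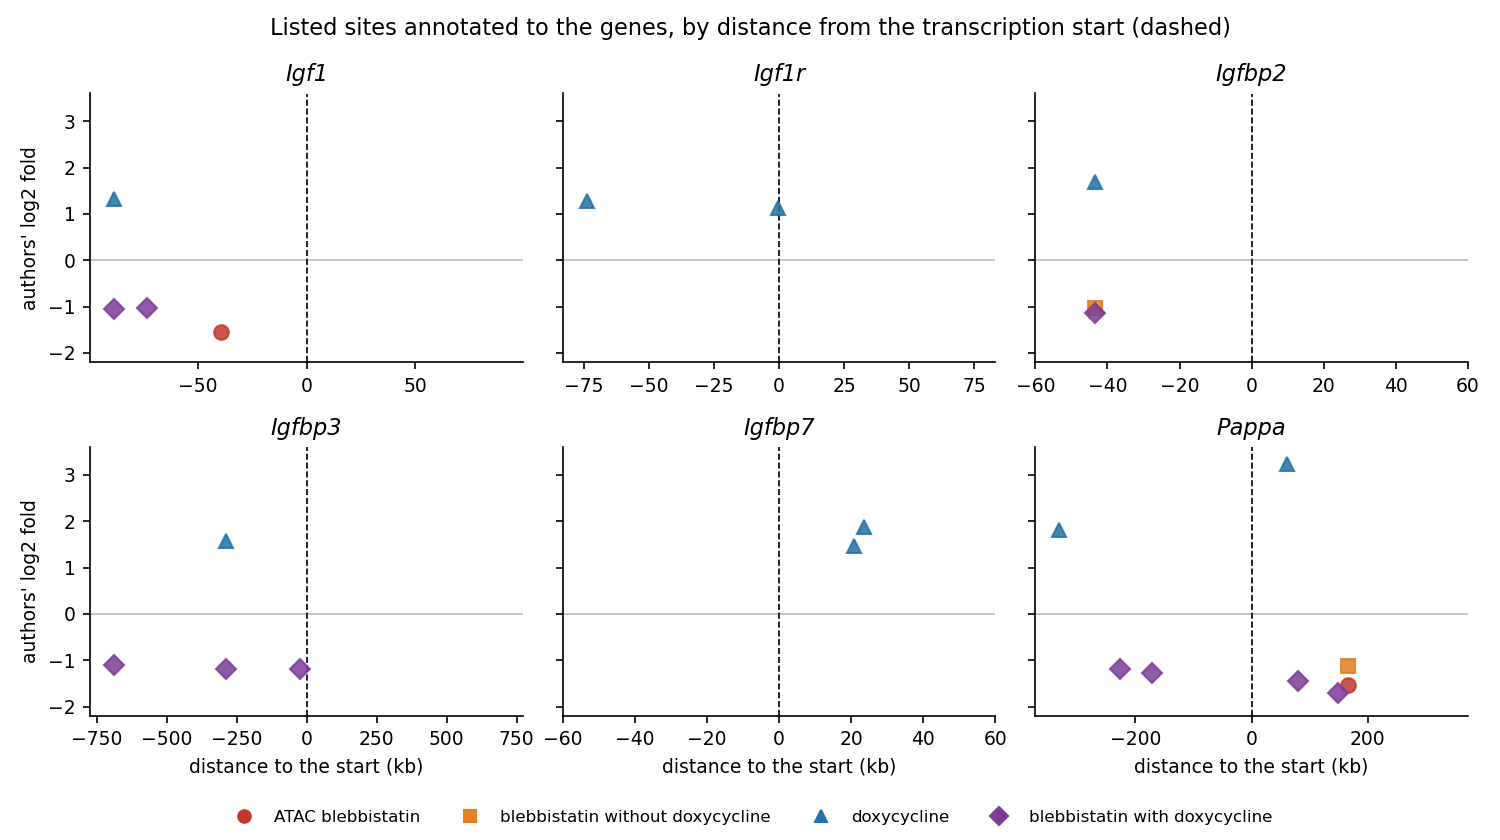
The 23 listed sites of 6 genes, by distance from the annotated start in kb (horizontal, negative before the start, a separate scale per gene) and the authors' log2 fold (vertical). Colours and shapes mark the list. Triangles, for doxycycline, all lie above 0, and the sites of the blebbistatin lists all lie below it.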

How the data were processed

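Each RNA table gives, per the file headers, a signal for every gene in each library. The deposited values are reads over a library size factor, as the values show: 100% of values above 0 were whole reads within 0.05, and 0 DMSO reads differed between the tables over 35972 shared genes. The authors' deposited RNA columns also give a log2 fold change and a p-value. For each site the authors deposited log2 means per group, their log2 fold, p-value and FDR, and the distance to a start, per the file headers. The submitters' processing notes name HISAT2, Picard, featureCounts, DESeq2, Bowtie2, SAMtools, MACS2, DiffBind, HOMER and mm10, with no versions or roles.

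Genes with a mean of at least 10 over 6 libraries were tested with limma 3.58.1 (trend, log2(value + 1), R 4.3.3), and the inhibitors against each other with edgeR 4.0.16 (quasi-likelihood, TMM, 9 libraries of recovered reads). P-values were Benjamini-Hochberg adjusted over all genes. DESeq2 1.42.0 was an alternative. The scripts were tested on simulated data. Replicate pairs differed by a chi-square per degree of freedom of 2.62 to 8.15. The members and gene lists were chosen with earlier results of these data known. Named outside the members are 15 listed genes and, per list, the called genes with the largest and smallest change (mean of at least 100, groups not overlapping), and every listed site of a member. A gene meeting this rule is not reported here. Promoters of 9 members were found in RefSeq, in 13 windows; that of Pappa was not used here. No genome was used.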

Additional observations from a re-analysis of the deposited data

How the results depend on the processing

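The 3 libraries per group limit the precision. Over the alternatives, 135 counts stayed within 1.5 times their main value and 6 did not, and single genes kept direction and call 390 times, lost the call 10 times, gained it 6 times and changed sign 10 times. The genes called with Y27632 numbered 3 to 5 of the 10 when 1 library was left out, 3 without DMSO replicate 1. Changes of sign touched changes that were not called: Igfbp2 with Y27632 (-0.04 with edgeR on 6 or 9 libraries, -0.32 without DMSO replicate 1, -0.06 without DMSO replicate 3, -0.03 without Y27632 replicate 1, -0.18 without Y27632 replicate 2, and up to 0.45 without DMSO replicate 2), Igfbp6 with Y27632 (0.01 without DMSO replicate 1, 0.02 without Y27632 replicate 1), and between the inhibitors Igfbp4 (-0.04 without blebbistatin replicate 2, up to 0.14 without blebbistatin replicate 3) and Igfbp7 (0.0024 without blebbistatin replicate 3). The cause was not tested. Igfbp2 gave no value with either inhibitor against DMSO in the fits where its mean fell below the filter, and none is counted with Y27632 for DESeq2. With the replicate number as a block, 6, 5 and 5 of the 10 were called with blebbistatin, with Y27632 and between the inhibitors, as were 7604, 4633 and 7759 of all genes and 48, 24 and 44 of the other pathway genes. Same-numbered libraries did not deviate together (9 correlations, -0.10 to 0.06), so the numbers were not taken as pairs. At an FDR of at most 0.01, 0 ATAC blebbistatin sites and 1 site of blebbistatin without doxycycline were left for the 10 genes. Within 100 kb of the start, 1 was left in each of these lists and 5 in that of blebbistatin with doxycycline.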

Other observations

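Further listed sites lay within 100 kb of one of the 10 genes but were annotated by the authors to another gene, and are given as values only. Past the end of Igf1, 2 ATAC sites annotated to Tyms-ps were higher with blebbistatin (log2 folds 1.61 and 1.33, FDR 0.0118 and 0.0395), unlike the Igf1 site before its start. These 2 sites lie side by side (chr10:87960008-87960187 and chr10:87960244-87960467) and may be parts of 1 region. In that list 1.75% of sites were higher. A site near Igfbp3 annotated to Cccd201 was lower with blebbistatin in ATAC libraries (-1.71, FDR 0.0119) and, at an overlapping position, in the libraries without doxycycline (-1.18, FDR 0.000177). Within the Igf1r gene, a position annotated to Pgpep1l was lower with blebbistatin without doxycycline (-1.14) and higher with doxycycline (1.22). Another position there, also annotated to Pgpep1l, was lower with blebbistatin without doxycycline (-1.08). Past the end of Igf1r, sites annotated to Gm16157 and Pgpep1l were higher with doxycycline (1.06 and 1.04). Near Pappa, an ATAC site annotated to Trim32 was lower with blebbistatin (-1.51). Near Igfbp2, a site annotated to Rpl37a was lower with blebbistatin without doxycycline (-1.5), and another was higher with doxycycline (1.5). Sites near Igfbp4 annotated to Tns4 and Rara were higher with doxycycline (1.53 and 1.0), as were 4 sites near Igfbp6 annotated to Zfp740, Rarg, Krt18 and Eif4b (1.02, 1.03, 1.82 and 1.39).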
